A study of Mus musculus with 43 samples.

Results

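Arginine metabolism was followed through 6 genes in mouse lung: the arginine transporter Slc7a2, the arginases Arg1 and Arg2, the inducible nitric oxide synthase Nos2, the citrulline-recycling enzyme Ass1 and the polyamine enzyme Odc1. The members were chosen by symbol, and each symbol was matched to its Entrez gene ID among the 24475 IDs of the count table. All 6 were found, and all 6 were among the 15598 genes with enough counts to be tested. The 43 libraries came from lung RNA of mice of genotype Il33hu/hu on a background labelled C57BL/6NTac (75%) / 129S6SvEvTac (25%), so every group, the controls included, shared genotype and strain. Saline was given to the mice of 7 libraries. House dust mite (HDM) was given over 4 weeks in 10 libraries and over 15 weeks in 7 more. Another 4 libraries had the 15-week course plus an isotype antibody, and 15 had it plus anti-IL-33. HDM is an allergen extract that causes airway inflammation, and IL-33 is a cytokine released by damaged epithelium. Ages and antibody doses were not among the labels, and the saline libraries carry no time, so HDM and time or age cannot be told apart. The labels do not say that each library is a separate animal, so p-values measure the spread between these libraries.

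Arginine is imported by cationic amino acid transporters and is then used by competing enzymes. Arginases split it into urea and ornithine, nitric oxide synthases turn it into nitric oxide and citrulline, and argininosuccinate synthase and lyase rebuild arginine from citrulline. Ornithine feeds proline, used in collagen, and, through ornithine decarboxylase, the polyamines. In lung, Arg1 is known as a gene of macrophages exposed to type 2 cytokines, while Nos2 is known as a gene of macrophages and epithelium exposed to interferon and bacterial products.

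Levels are CPM, a gene's counts scaled to a common library total. Library totals ran from 7090950 to 12414078 counts in saline, 4795214 to 11959383 at 4 weeks, 4909177 to 11507108 at 15 weeks, 8354316 to 10243469 with isotype and 5126491 to 12599467 with anti-IL-33. Lung markers matched the labelled tissue, with the type II alveolar gene Sftpc between 7725 and 28850 CPM over all libraries. The summed level of 7 liver markers was at most 2.67 CPM in any library, so markers of hepatocytes, which are rich in Arg1 and Ass1, were at or near 0. Replicate 1 of the 15-week group and replicate 3 of the 4-week group stood apart from their groups, with median correlations of 0.916 and 0.923 against 0.952 or more in the others. The sample numbers fell into 2 ranges, whose meaning the labels do not state. Range 1 held 2 saline, 4 4-week, 5 15-week, 3 isotype and 8 anti-IL-33 libraries, and the range was a term in the test.

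The genes are spread over the genome (GRCm38). Arg1 (Entrez 11846) lies on chromosome 10 at 24915207 to 24927470 on the minus strand. The other 5 lie on the plus strand. Arg2 (Entrez 11847) is on chromosome 12 at 79130788 to 79156301, Nos2 (Entrez 18126) on chromosome 11 at 78920787 to 78960226 and Slc7a2 (Entrez 11988) on chromosome 8 at 40862341 to 40922070. Ass1 (Entrez 11898) is on chromosome 2 at 31470270 to 31520670 and Odc1 (Entrez 18263) on chromosome 12 at 17544808 to 17551502. In the GENCODE annotation, Arg1 and Nos2 shared no exonic base with another gene and no 50-base stretch with another transcript. Exons of Vti1b and Gm48780 on the opposite strand cover 28.08% of Arg2's exonic bases and those of Gm26584 6.95% of Slc7a2's, and no source used here states the strand setting of the counting. Odc1 shared 24.29% of its 50-base stretches with 15 other annotated genes, so its counts are less certain than those of Arg1.

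Ass1 was the member with the least certain counts. It shared 38.62% of its 50-base stretches with Gm5424, a pseudogene on chromosome 10 at 62071022 to 62072571 that has its own row in the count table. Over the whole coding length of 1236 bases the GENCODE transcripts of Ass1 and Gm5424 differed at 6 bases, an identity of 99.51%, and their longest identical run was 398 bases. The stretch from coding base 340 to 429 holds the most differences of any 90-base stretch, and is shown to make plain how little separates the copies. Capitals mark the 2 bases that differ.

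Ass1: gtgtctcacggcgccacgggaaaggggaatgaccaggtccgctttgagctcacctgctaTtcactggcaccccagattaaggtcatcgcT

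Gm5424: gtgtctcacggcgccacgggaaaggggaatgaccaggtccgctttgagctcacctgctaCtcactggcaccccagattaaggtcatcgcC

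The deposited Ass1 counts lay within 0.6 counts of a whole multiple of 20.64 in 42 of 43 libraries, from 1 to 20 multiples. Among 13642 genes with a median of at least 20 counts, 4 behaved this way. Ass1 values therefore moved in few large steps, and counting error is larger than the counts themselves show. For this reason Ass1 is given as deposited and also summed with Gm5424, a choice made after seeing the data.

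**Figure D1:**
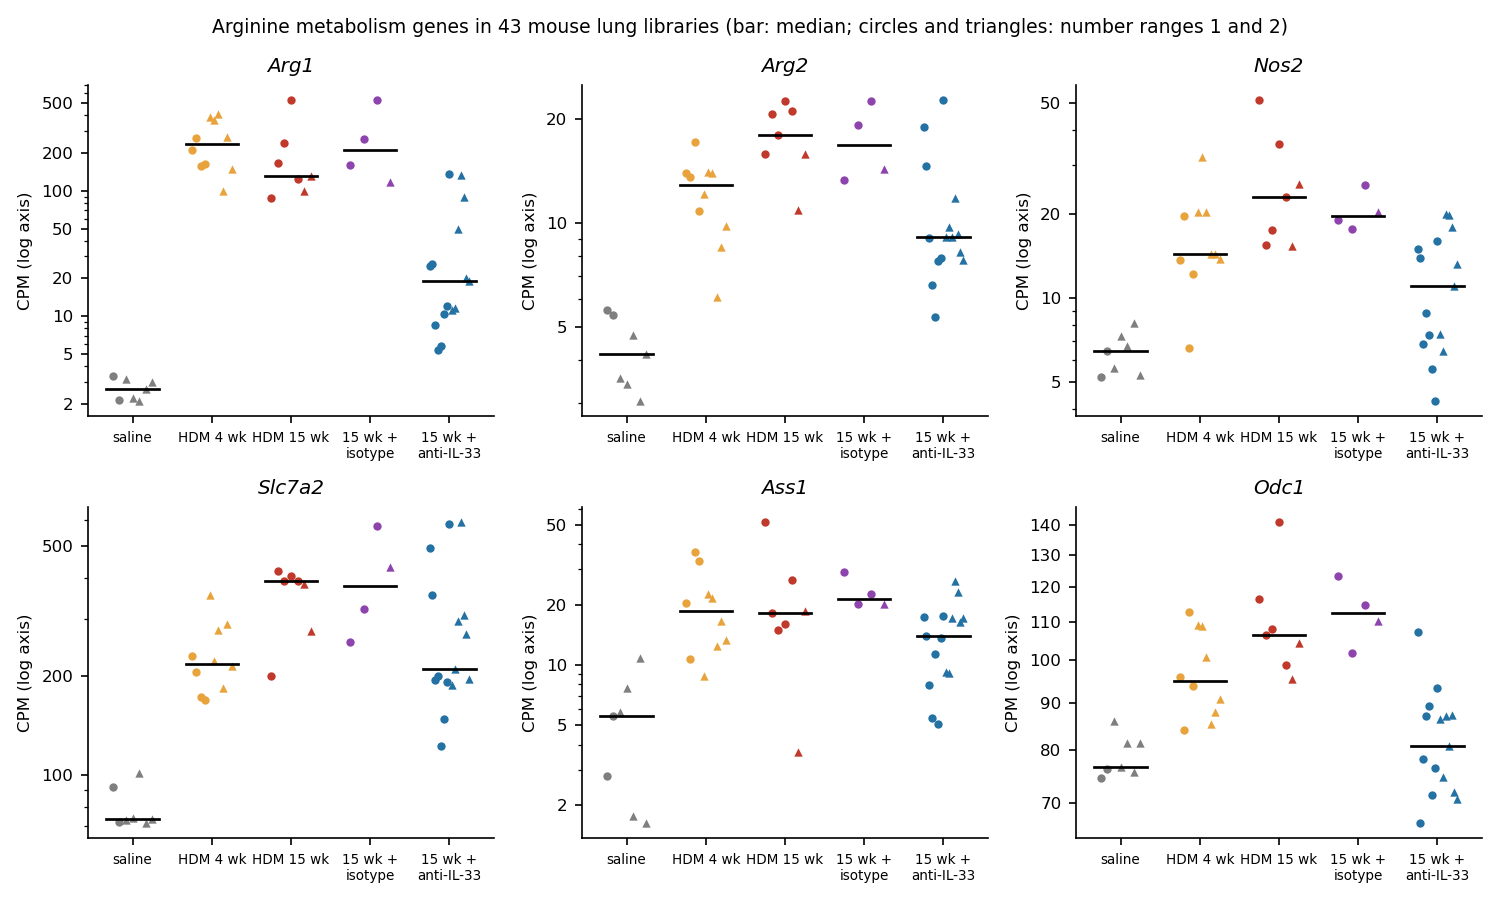
CPM of each of the 6 genes on a log axis, 1 point per library, in the 5 groups; the bar is the group median, and circles and triangles are number ranges 1 and 2. The saline libraries of Arg1 lie between 2.10 and 3.33 CPM and the 4-week libraries between 100 and 408 CPM, while the anti-IL-33 libraries spread from 5.35 to 136 CPM.

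All 6 genes were higher after HDM than in saline. Arg1 stood 94.8-fold above saline at 4 weeks and 81.0-fold at 15 weeks, the other members between 1.22-fold (Odc1) and 4.55-fold (Nos2). In the edgeR quasi-likelihood test across all genes, at a Benjamini-Hochberg adjusted p under 0.05, 6 of 6 members were higher at 4 weeks than in saline, where 29.3% of all tested genes were called higher, 27.5% lower and 56.8% in either direction. At 15 weeks 6 of 6 were higher, against a background of 31.2% higher, 28.1% lower and 59.2% in either direction. The median log2 fold change of all tested genes was 0.01 in each. The comparisons share the same saline libraries, so they are not independent of each other. In bulk tissue, fewer cells of a type and less RNA per cell cannot be told apart, here and in every comparison below.

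A subset of the members was lower with anti-IL-33. Against the isotype antibody, 2 of 6, Arg1 and Odc1, were lower, where 3.14% of all genes were called lower, 3.58% higher and 6.71% in either direction. Leaving out the 2 libraries that stood apart, which are in neither of these groups, changed the shared fit. That fit gave 4 of 6 lower, where 2331 of 15577 genes were lower and 2308 higher. Against 15 weeks of HDM with no antibody, 4 of 6 were lower (Arg1, Arg2, Nos2 and Odc1), where 19.9% were called lower, 15.9% higher and 35.8% in either direction. Slc7a2 and Ass1 were called in neither. These comparisons share the anti-IL-33 libraries. The isotype antibody itself gave no call among the 6 members against 15 weeks of HDM, and 0 of all genes were called there by edgeR (0% of 15598), with 933 at an unadjusted p under 0.05. DESeq2 called 8 genes there and limma-voom 0. With anti-IL-33, 5 of 6 members were still higher than in saline, with 20% of all genes called higher, 18.5% lower and 38.6% in either direction, and Odc1 was the exception.

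**Figure D2:**
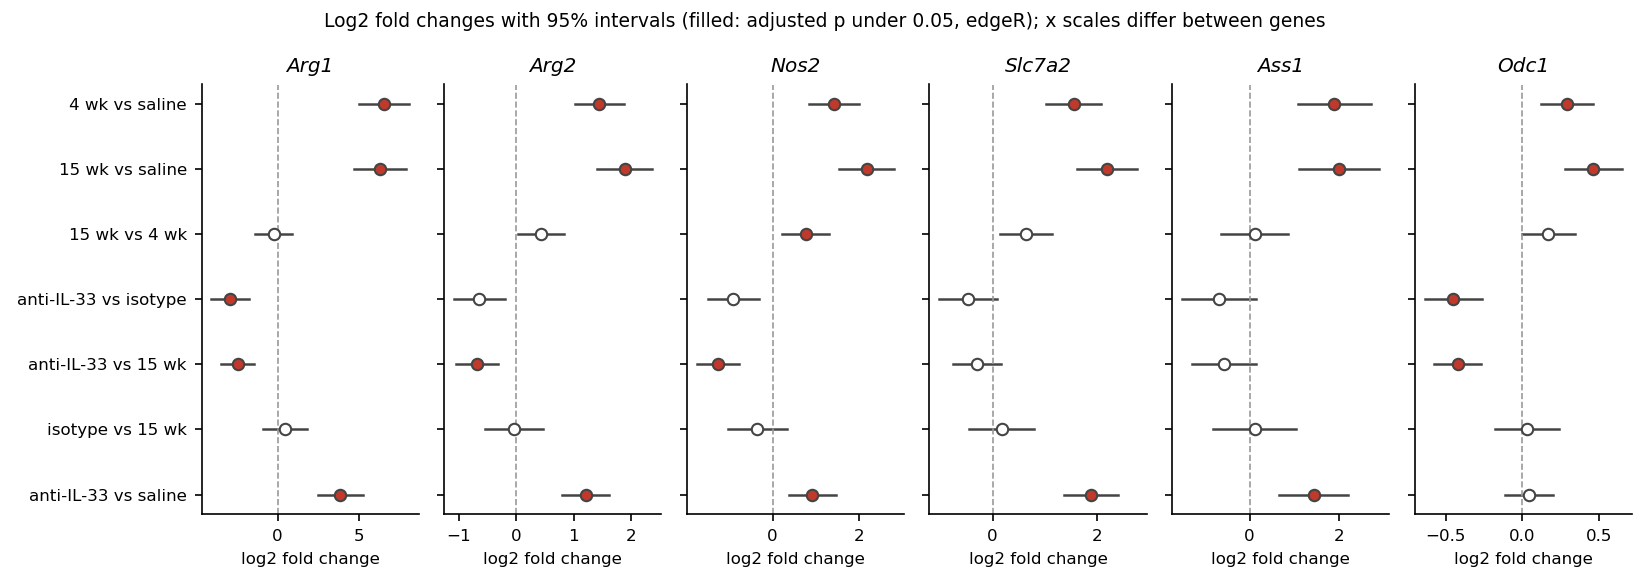
Log2 fold change of each gene in the 7 comparisons, with 95% intervals; filled points passed an adjusted p of 0.05 in edgeR, and the x scale differs between genes. The points of Arg1 sit at 6.57 and 6.34 after HDM and at 3.87 for anti-IL-33 against saline, and the interval of Odc1 in the last row spans 0.

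Slc7a2 encodes the cationic amino acid transporter CAT2, which brings arginine into macrophages. Its saline libraries lay between 71.5 and 102 CPM, with a median of 73.7. At 4 weeks the lowest, median and highest libraries were 169, 219 and 355 CPM. At 15 weeks they were 201, 390 and 420 CPM. Neither HDM group overlapped with saline. The log2 fold change was 1.55 ± 0.26 (SE) at 4 weeks (edgeR adjusted p = 4.07e-06) and 2.18 ± 0.28 at 15 weeks (adjusted p = 3.64e-08). The 15-week libraries overlapped the 4-week ones, 5 of 7 lying above all 10, and the difference of 0.64 ± 0.25 did not pass in edgeR (adjusted p = 0.0614) but passed in DESeq2 (adjusted p = 0.0463). The 4 isotype libraries were 255, 322, 575 and 430 CPM, within or above the range of the 15-week group. With anti-IL-33 the lowest, median and highest libraries were 123, 211 and 591 CPM, a spread of 4.81-fold, and the 2 highest exceeded every isotype library. The differences from isotype (-0.47 ± 0.27, 95% interval -1.02 to 0.08, adjusted p = 0.246) and from the 15-week group (-0.30 ± 0.23, interval -0.76 to 0.15, adjusted p = 0.293) did not pass. All 15 anti-IL-33 libraries were above all saline libraries, with a log2 fold change of 1.88 ± 0.25 (adjusted p = 1.74e-07).

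Arg1 encodes cytosolic arginase. It was nearly silent in saline, with 16 to 39 counts per library and 2.10, 2.61 and 3.33 CPM in the lowest, median and highest library. At 4 weeks the libraries ran from 100 through a median of 238 to 408 CPM. At 15 weeks they ran from 88.2 through 132 to 526.3 CPM. The lowest HDM library was far above the highest saline library at both times. The log2 fold changes were 6.57 ± 0.76 (adjusted p = 1.04e-08) and 6.34 ± 0.79 (adjusted p = 2.34e-08), with 95% intervals of 32.5- to 276-fold for 4 weeks. The 15-week and 4-week groups overlapped and their difference did not pass (-0.23 ± 0.56, interval -1.37 to 0.91, adjusted p = 0.809).

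The isotype libraries held 162, 260.5, 535 and 117 CPM of Arg1, overlapping the 15-week group without antibody (0.46 ± 0.66, interval -0.88 to 1.80, adjusted p = 0.930). With anti-IL-33 the lowest, median and highest libraries were 5.35, 19.3 and 136 CPM. Of the 15, 13 lay below every isotype library and 12 below every 15-week library, yet all 15 lay above every saline library. Arg1 fell by 2.93 ± 0.57 on the log2 scale against isotype (adjusted p = 0.00353), 7.60-fold, and by 2.47 ± 0.50 against 15 weeks without antibody (adjusted p = 0.00051), 5.53-fold. It remained 14.6-fold above saline (3.87 ± 0.69, adjusted p = 2.22e-05). Arg1 was the most variable member under anti-IL-33, with a 25.4-fold span between libraries against 1.58-fold in saline. Replicates 8, 12, 13 and 11 held 136, 135, 90.1 and 50.1 CPM, and the other 11 held at most 25.9 CPM. Without isotype replicate 3, the highest of its group, the difference from isotype was -2.34 and no longer passed (adjusted p = 0.0707).

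Arg2 encodes the mitochondrial arginase. It moved much less than Arg1. The lowest, median and highest libraries were 3.04, 4.16 and 5.60 CPM in saline, 6.07, 12.8 and 17.1 CPM at 4 weeks, and 10.9, 17.97 and 22.6 CPM at 15 weeks. No HDM library reached down to the saline range. The log2 fold change was 1.45 ± 0.21 at 4 weeks (adjusted p = 5.85e-07) and 1.89 ± 0.23 at 15 weeks (adjusted p = 1.47e-08), and 15 against 4 weeks did not pass (0.44 ± 0.20, adjusted p = 0.112). The isotype libraries were 13.3, 19.3, 22.6 and 14.3 CPM. With anti-IL-33 the range was 5.33 to 22.8 CPM with a median of 9.06, and 12 of 15 libraries were below every isotype library while 1 was above all of them. Arg2 fell by 0.68 ± 0.18 against 15 weeks without antibody (adjusted p = 0.00456). Against isotype the difference of -0.64 ± 0.22 did not pass in edgeR (adjusted p = 0.0623) and passed in DESeq2 (0.049), in limma-voom (0.0361), and in edgeR without the 2 libraries that stood apart (0.0253).

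Per kilobase of exon, the balance of the arginases turned over with HDM. The ratio of Arg1 to Arg2 had a median of 0.416 in saline and was below 1 in all 7 libraries. It had a median of 11.5 at 4 weeks, 5.37 at 15 weeks and 8.23 with isotype, and was above 1 in all 21 libraries of those groups. With anti-IL-33 the median was 0.988, and 7 of 15 libraries were above 1. Over the 6 genes, the mean level per kilobase in saline ran from Odc1 (23.2 CPM per kb) through Slc7a2 (8.74), Arg2 (2.99), Ass1 (2.13) and Nos2 (1.45) to Arg1 (1.19), where the ranges of Ass1 overlapped those of Arg2, Nos2 and Arg1, and those of Nos2 and Arg1 overlapped each other. The place of Ass1 depends on how it is counted: summed with Gm5424, and over the exonic length of Ass1, its saline mean was 8.66 CPM per kb, with a range of 7.56 to 10.2 that overlapped that of Slc7a2. Arg1 had the highest mean at 4 weeks (112 CPM per kb), at 15 weeks (88.5) and with isotype (121). Its range lay above those of the other 5 at 4 weeks, but overlapped that of Slc7a2 at 15 weeks and with isotype, and that of Odc1 at 15 weeks. With anti-IL-33 the order was Slc7a2 (31.7), Odc1 (24.1) and Arg1 (16.95), with overlapping ranges.

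Nos2 encodes the inducible nitric oxide synthase, which competes with arginase for arginine. The lowest, median and highest libraries were 5.20, 6.46 and 8.17 CPM in saline and 6.61, 14.4 and 32.1 CPM at 4 weeks. At 15 weeks they were 15.3, 23.03 and 51.5 CPM. At 4 weeks 9 of 10 libraries were above all saline libraries, and at 15 weeks all 7 were. The log2 fold change was 1.42 ± 0.29 at 4 weeks (adjusted p = 6.31e-05) and 2.19 ± 0.32 at 15 weeks (adjusted p = 2.8e-07). Nos2 was the member called between 15 and 4 weeks, 1 of 6 where 12.3% of all genes were called higher, 9.08% lower and 21.4% in either direction (0.77 ± 0.27, adjusted p = 0.0396). The highest 15-week library was replicate 1 and the lowest 4-week library was replicate 3, the libraries that stood apart. Without them the difference was 0.41 (edgeR adjusted p = 0.286). With all libraries kept, limma-voom gave 0.62 (adjusted p = 0.0901), and the difference also did not pass in edgeR without the filter or without the range term.

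The isotype libraries held 19.1, 17.7, 25.4 and 20.4 CPM of Nos2. With anti-IL-33 the lowest, median and highest libraries were 4.27, 11.1 and 19.98 CPM, and 12 of 15 lay below every isotype library. The fall against 15 weeks without antibody was 1.27 ± 0.25 on the log2 scale (adjusted p = 0.000295), and against isotype the difference was -0.91 ± 0.30 (edgeR adjusted p = 0.0513, DESeq2 0.0375). The level stayed above saline (0.92 ± 0.27, adjusted p = 0.00633), though 1 of the 15 libraries was below every saline library. Per kilobase, the median ratio of Arg1 to Nos2 was 0.660 in saline, 28.7 at 4 weeks, 12.97 at 15 weeks, 22.99 with isotype and 3.59 with anti-IL-33.

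Ass1 encodes argininosuccinate synthase, the first step in rebuilding arginine from citrulline. As deposited, it held 1.62, 5.52 and 10.8 CPM in the lowest, median and highest saline libraries, 8.77, 18.5 and 36.7 CPM at 4 weeks, and 3.68, 18.1 and 51.8 CPM at 15 weeks. Both HDM groups overlapped with saline. The log2 fold change was 1.89 ± 0.40 at 4 weeks (adjusted p = 0.000152) and 1.997 ± 0.45 at 15 weeks (adjusted p = 0.000225). The share of the pair's counts placed on Ass1 varied from 8.02% to 43.97% in saline and from 23.6% to 100% at 4 weeks, where replicates 3 and 4 had 0 and 9 counts on Gm5424.

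Summed with Gm5424, the values were tighter and the rise was smaller. The saline libraries lay between 18.3 and 24.5 CPM, the 4-week libraries between 28.2 and 45.2 CPM and the 15-week libraries between 37.8 and 99.6 CPM, with no overlap with saline. The sum rose by 0.75 ± 0.16 at 4 weeks (adjusted p = 0.000159), 1.68-fold in place of 3.70-fold. It rose by 1.37 ± 0.18 at 15 weeks (adjusted p = 4.84e-08), 2.58-fold in place of 3.99-fold. The sum was also higher at 15 than at 4 weeks (0.62 ± 0.16, adjusted p = 0.0047), and 0.43 without the 2 libraries that stood apart (adjusted p = 0.0371), whereas Ass1 as deposited gave 0.11 (adjusted p = 0.865). Gm5424 alone differed from saline by 0.04 at 4 weeks (adjusted p = 0.924) and by 1.11 at 15 weeks (adjusted p = 0.0124).

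With anti-IL-33, Ass1 as deposited ran from 5.05 through 13.9 to 26.1 CPM, and the isotype libraries were 29.1, 20.1, 22.6 and 20.2 CPM. The differences from isotype (-0.68 ± 0.41, adjusted p = 0.263) and from 15 weeks without antibody (-0.57 ± 0.35, adjusted p = 0.194) did not pass. The sum fell by 0.61 ± 0.14 against 15 weeks without antibody (adjusted p = 0.00176) and did not pass against isotype (-0.27 ± 0.18, adjusted p = 0.302). Against saline it was higher in all 15 libraries (0.76 ± 0.15, adjusted p = 0.000124). How the reads were divided between the copies was not tested.

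**Figure D3:**
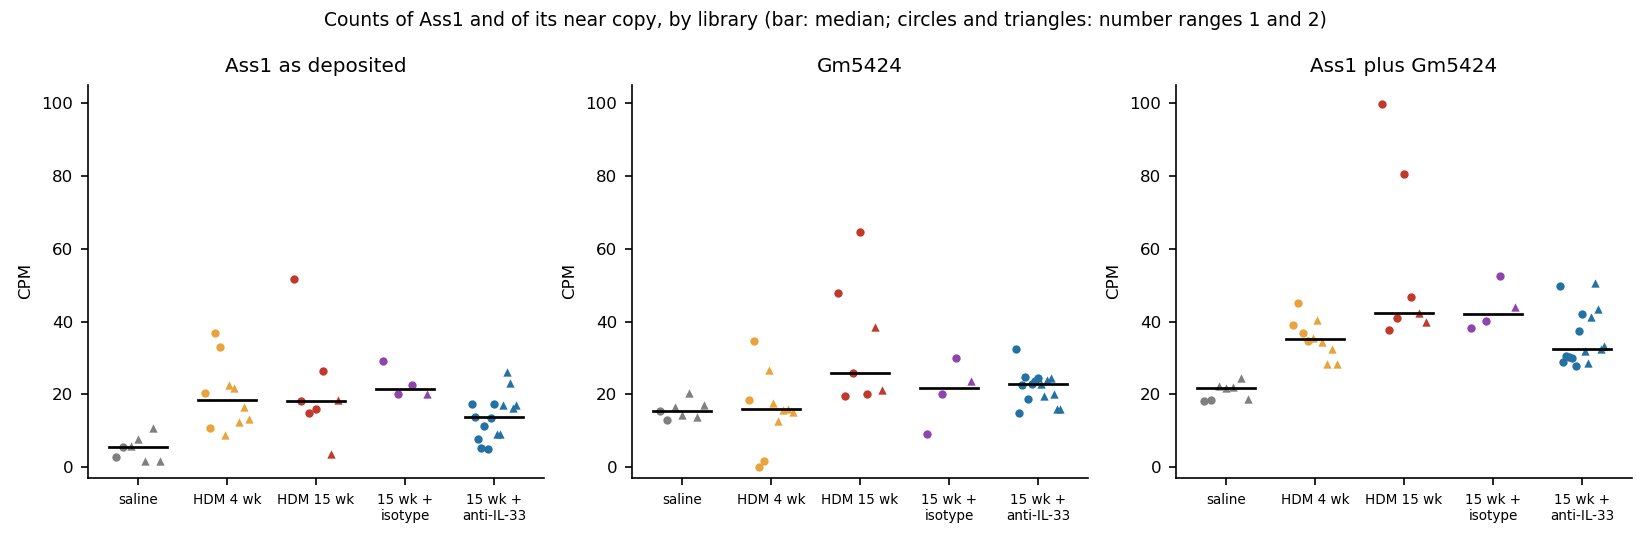
CPM of Ass1 as deposited, of Gm5424 and of their sum, 1 point per library; bars are medians, and circles and triangles are number ranges 1 and 2. The 4-week libraries with 0 and 9 counts on Gm5424 are the 2 highest of their group for Ass1, and the sums of the saline libraries, 18.3 to 24.5 CPM, lie below those of every other group.

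Odc1 encodes ornithine decarboxylase, the entry to polyamine synthesis. It had the smallest change of the 6 members against saline at both HDM times. The lowest, median and highest libraries were 74.6, 76.7 and 85.9 CPM in saline, 84.0, 94.9 and 113 CPM at 4 weeks, and 95.4, 106 and 141 CPM at 15 weeks. At 4 weeks 8 of 10 libraries were above all saline libraries, and at 15 weeks all 7 were. The log2 fold change was 0.29 ± 0.08 at 4 weeks (adjusted p = 0.00296) and 0.46 ± 0.09 at 15 weeks (adjusted p = 5.48e-05). The isotype libraries were 123, 102, 115 and 110 CPM. With anti-IL-33 the range was 66.6 to 107 CPM with a median of 80.8, and 14 of 15 libraries were below every isotype library and every 15-week library. Odc1 fell by 0.45 ± 0.09 against isotype (adjusted p = 0.00517) and by 0.42 ± 0.08 against 15 weeks without antibody (adjusted p = 0.000165). Against saline the difference was 0.04 ± 0.08, with a 95% interval of -0.12 to 0.20 (adjusted p = 0.706).

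Within a number range the groups are smaller. Against saline, Arg1 was higher by 6.19 and 6.75 at 4 weeks in ranges 1 and 2 (adjusted p = 0.0106 and 6.68e-06) and by 6.38 and 5.48 at 15 weeks (0.00405 and 0.000154). In range 1, with 2 saline libraries, Arg2, Nos2, Slc7a2 and Odc1 kept their direction at 4 weeks but did not pass. Against isotype, Arg1 was lower by 3.47 in range 1 (adjusted p = 0.0185), and range 2, with 1 isotype library, gave -1.30 (adjusted p = 0.807). Against 15 weeks without antibody, Arg1, Arg2, Nos2 and Odc1 passed in range 1, with differences of -2.99, -0.76, -1.57 and -0.45. In range 2, with 2 15-week libraries, none of the 6 passed, and Arg1 gave -1.28 (adjusted p = 0.506). For anti-IL-33 against saline, Arg1 gave 3.39 in range 1 (adjusted p = 0.142) and 4.20 in range 2 (adjusted p = 0.000298).

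Around these 6 genes, 56 others of arginine, nitric oxide, proline, polyamine, creatine and arginine methylation pathways were listed, and 51 had enough counts. After 4 weeks of HDM 29 were higher and 3 lower, with a median log2 fold change of 0.29, where 29.3% of all genes were higher and 27.5% lower. After 15 weeks 31 were higher and 3 lower, with a median of 0.47, where 31.2% of all genes were higher and 28.1% lower. The same shares are the background of the shorter lists that follow. Pycr1, which makes proline, rose most among those named, from 1.03 ± 0.24 CPM (SD, n = 7) in saline to 5.02 ± 2.40 (n = 10) and 8.87 ± 2.98 (n = 7), log2 fold changes of 2.29 ± 0.29 and 3.08 ± 0.31. Aldh18a1, the enzyme that makes the proline precursor from glutamate, rose by 0.74 and 1.38. Both belong to the proline list, of which 4 of 7 members rose at 4 weeks and 5 of 7 at 15 weeks, while Oat, which links ornithine to proline, did not pass (-0.05 and 0.11, the latter 0.13 with an adjusted p of 0.0491 without the 2 libraries that stood apart).

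On the polyamine side, 6 of 7 genes of synthesis and its control rose at 4 weeks and 5 of 7 at 15 weeks. Both counts include Amd1, whose libraries differed widely within a group. Its median was 1.52 CPM in saline, 2.07 at 4 weeks and 2.02 at 15 weeks, with highest libraries of 1.78, 38.9 and 77.0 CPM. The spermidine synthase gene Srm rose by 1.01 and 1.63, and Azin2, which encodes an antizyme inhibitor, by 0.90 and 0.76 (0.47 at 15 weeks without the 2 libraries). Of the catabolism and use list, 5 of 7 rose at 4 weeks, among them Sat1, the acetyltransferase that starts polyamine breakdown (0.77), and 6 of 7 at 15 weeks. Asl, the lyase that follows Ass1, rose by 0.61 and 0.90. In the nitric oxide list Gch1, which makes the synthase cofactor, rose by 0.73 and 1.34, while Nostrin, which binds the endothelial synthase, fell by 0.48 and 0.95. The 5 endothelial markers fell in 4 and 5 cases at the 2 times, and their part in the Nostrin result was not tested. The methyltransferase gene Prmt8 rose by 1.04 and 1.48 and Prmt2 fell by 0.37 and 0.39.

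Between 15 and 4 weeks, 13 of the 51 were higher and 2 lower, where 12.3% of all genes were higher and 9.08% lower. Without the 2 libraries that stood apart 9 were higher and 4 lower, where 1505 of 15577 genes were higher and 1228 lower. Slc3a2, the heavy chain of amino acid exchangers, rose by 0.89, the spermine oxidase gene Smox by 0.70 and the creatine transporter gene Slc6a8 by 0.72. Without the 2 libraries they were higher by 0.68, 0.59 and 0.55 (adjusted p = 0.00088, 0.00492 and 0.0168 in edgeR). With anti-IL-33, 3 of 51 were lower than with isotype, where 3.14% of all genes were lower. The 2 libraries are in neither of these groups, so leaving them out changed only the shared fit. Without them 17 of 51 were lower, where 2331 of 15577 genes were. Of the 3, Sat1 fell by 0.44, Gatm, which starts creatine synthesis from arginine, by 0.94 and Smox by 0.56. Against 15 weeks without antibody 30 of 51 were lower and Nostrin was higher (0.44), with a list median of -0.37 against 0.0022 for all genes, of which 19.9% were lower and 15.9% higher. Without the 2 libraries, replicate 1 of the 15-week group among them, 20 of 51 were lower and 2 higher, with a list median of -0.18. In that fit 2391 of 15577 genes were lower and 2290 higher. Slc3a2 fell by 0.81, Srm by 0.83, Slc6a8 by 0.71, Eif5a, the translation factor modified by spermidine, by 0.67, and Aldh18a1 by 0.60. Without the 2 libraries these 5 were lower by less, with log2 changes of -0.58 for Slc3a2, -0.63 for Srm, -0.59 for Slc6a8, -0.49 for Eif5a and -0.43 for Aldh18a1, and all 5 still passed. Compared with saline, 21 of 51 were higher with anti-IL-33 and 6 lower, where 20% of all genes were higher and 18.5% lower, Pycr1 being 2.39 higher and Gchfr, the feedback regulator of Gch1, 2.05 lower.

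**Figure D4:**
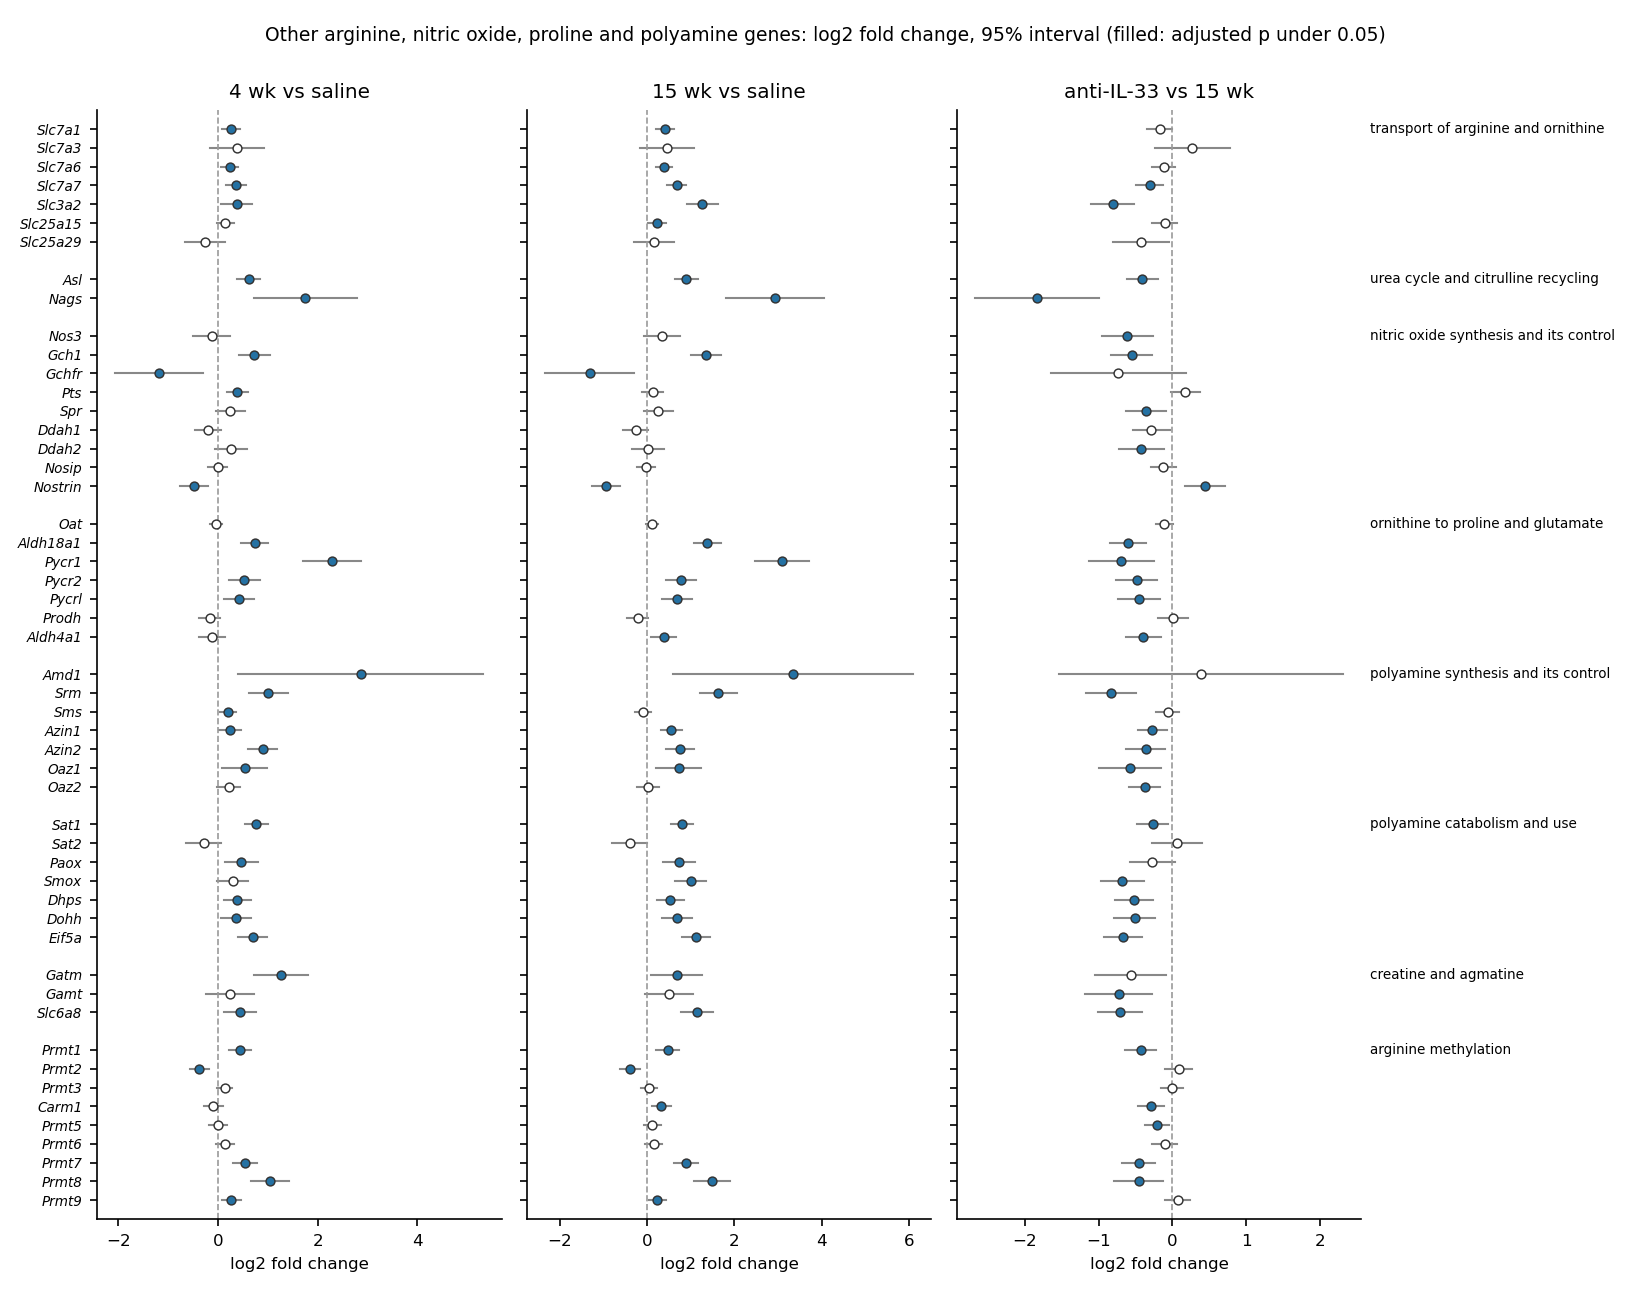
Log2 fold changes with 95% intervals of the 51 other tested pathway genes in 3 comparisons, grouped by list; filled points passed an adjusted p of 0.05 in edgeR. Filled points lie mostly right of 0 at 4 weeks (29 of 32) and 15 weeks (31 of 34) and mostly left of 0 for anti-IL-33 against 15 weeks without antibody (30 of 31).

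Markers of other cells moved with the members in some comparisons and not in others. The shares of all genes called, given above, apply to each count here (29.3% higher at 4 weeks, 31.2% higher at 15 weeks, 3.14% lower with anti-IL-33 against isotype). All 7 markers of alternatively activated macrophages rose at 4 and at 15 weeks, and their summed level ran from 523 to 2890 CPM in saline, 9983 to 30883 CPM at 4 weeks, 9337 to 20225 CPM at 15 weeks, 12542 to 26973 CPM with isotype and 1496 to 24138 CPM with anti-IL-33. Between 15 and 4 weeks 3 of 7 were lower, where 9.08% of all genes were and Arg1 was not called. Against isotype 4 of 7 fell with anti-IL-33, Retnla by 2.26 and not Chil3 (-0.59, adjusted p = 0.408). Chil3 weighed most in the summed level of the 7. Its median was 12432 CPM at 15 weeks and 7887 with anti-IL-33, where the summed medians were 15241 and 9098 CPM. The highest anti-IL-33 library held 21802 CPM of Chil3. Of 9 interstitial and monocyte-derived macrophage markers, 7 rose at each time and 1, Cx3cr1, fell at 4 weeks. Their summed level ran from 267 to 486 CPM in saline, 653 to 1095 CPM at 4 weeks and 916 to 1907 CPM at 15 weeks. With anti-IL-33, 0 of 9 were called against isotype and 1 fell against 15 weeks without antibody. Of 9 tested neutrophil markers 3 rose and 2 fell at 4 weeks, 8 rose at 15 weeks, and 4 fell with anti-IL-33 against isotype. Of 10 alveolar macrophage markers 3 rose and 2 fell at 4 weeks, 5 rose and 2 fell at 15 weeks, and 0 were called against isotype. Of 9 markers of group 2 innate lymphoid cells 8 rose and 1 fell at 4 weeks, 5 rose and 1 fell at 15 weeks, and 5 fell with anti-IL-33 against isotype. All 6 proliferation markers rose at both times. Without the 2 libraries that stood apart, 1 of 9 interstitial markers was higher and 2 lower with anti-IL-33 against isotype, 2 of 10 alveolar macrophage markers were higher, and 3 of 9 neutrophil markers were lower at 4 weeks. In that fit 2308 of 15577 genes were higher and 2331 lower against isotype, and 4813 were lower at 4 weeks than in saline. No marker of these lists was at 0 in a whole group. The part of these cells in the results for Arg1, Arg2, Nos2, Slc7a2, Ass1 and Odc1 was not tested.

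Among signals known to act on Arg1, Il13 and Il4, named here after their values were seen, were both higher than saline at 4 weeks. Of the other 3 genes of their list at 4 weeks, Stat6, which carries their signal, was lower (log2 change of -0.22, edgeR adjusted p = 0.0117), and the receptor genes Il4ra (0.30) and Il13ra1 (-0.11) were not called. Il13 held a mean of 0.12 CPM in saline, with at most 3 counts in a library, 5.51 CPM at 4 weeks, 1.84 at 15 weeks, 2.07 with isotype and 0.32 with anti-IL-33. Il13 was lower at 15 than at 4 weeks by 1.56 ± 0.45 (adjusted p = 0.0109), where the Arg1 difference was -0.23 and did not pass. Of the 5 genes of the list, 2 were lower there (Il4 and Il13) and 3 higher (Il4ra, Il13ra1 and Stat6). Of all genes, 9.08% were called lower and 12.3% higher. Without the 2 libraries that stood apart, 2 of the 5 were lower and 2 higher, where 1228 of 15577 genes were lower and 1505 higher. With anti-IL-33 against isotype, Il13 fell by 2.56 ± 0.55 (edgeR adjusted p = 0.00701). The other 4 genes of the list, Il4 among them, were not called there, where 3.14% of all genes were called lower and 3.58% higher. Without the 2 libraries that stood apart, 2 of the 5 were lower and 1 higher, where 2331 of 15577 genes were lower and 2308 higher.

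Within the 15 anti-IL-33 libraries, the largest group, Slc7a2 varied with Arg1, Arg2, Nos2 and Ass1. Over 15 pairs of members, 8 passed on Pearson's r of log2 CPM (2-sided permutation test of 100000 resamples, Benjamini-Hochberg over the 15 pairs). The share of other gene pairs that pass in these libraries was not measured. The count therefore cannot show whether these members vary together more than other genes do. For Arg1 and Slc7a2, r was 0.85 (p = 0.00012, adjusted 0.0009) and rho 0.85 (p = 0.00019, adjusted 0.000712), with r of 0.71 without the 2 libraries farthest from the median of Arg1. For Arg2 and Slc7a2, r was 0.86 (p = 5e-05, adjusted 0.00075) and rho 0.84 (p = 0.00016, adjusted 0.000712), with 0.78 without 2. For Arg1 and Nos2, the competing enzymes, r was 0.80 (p = 0.00034, adjusted 0.00169) and rho 0.79 (p = 0.00081, adjusted 0.00202), with 0.78 without 2. For Arg1 and Arg2, r was 0.65 (p = 0.0078, adjusted 0.0146) and rho 0.78 (p = 0.00108, adjusted 0.00231), and r fell to 0.49 without 2. Of the 10 pairs without Odc1, 2 did not pass on r: Arg2 and Nos2 (r of 0.51, adjusted p = 0.0856, rho of 0.57, adjusted p = 0.0419) and Arg2 and Ass1 (r of 0.43, adjusted p = 0.152, rho of 0.62, adjusted p = 0.0283). With Ass1 as deposited, the 5 pairs with Odc1 had r from 0.20 to 0.34 and did not pass on r or rho. Within the number ranges, Arg1 and Slc7a2 had r of 0.88 (n = 8) and 0.89 (n = 7), and Arg1 and Nos2 0.68 and 0.90.

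Pairs with Ass1 depend on how it is counted. For Arg1 and Ass1 as deposited, r was 0.80 and rho 0.90 (permutation adjusted p = 0.00169 and 0.00045), and with the sum r was 0.77 and rho 0.71 (adjusted p = 0.00307 and 0.0122 over 5 pairs). The pairs with Arg2 and Odc1 did not pass on r as deposited. With the sum they passed on r (0.54 and 0.61, permutation adjusted p = 0.0365 and 0.0199). They did not pass on rho (0.48 and 0.53, adjusted p = 0.0726 and 0.0566). Without the 2 libraries farthest from the median of Arg2 or Odc1, r was 0.27 and 0.40. The largest gap between neighbouring libraries was 0.94 of a 4.62 range on the log2 scale for Arg1, with 4 libraries above it. A gap in Arg1 alone cannot show whether the libraries form clusters, and their part in these relations was not tested.

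**Figure D5:**
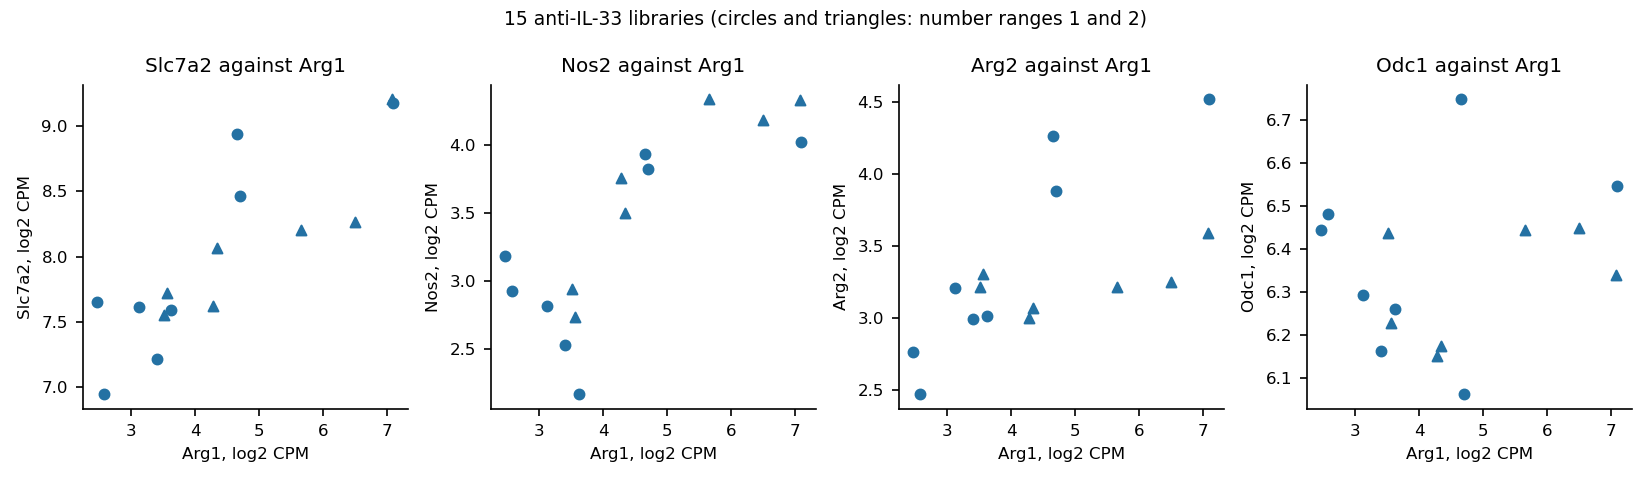
Log2 CPM of Slc7a2, Nos2, Arg2 and Odc1 (y) against Arg1 (x) in the 15 anti-IL-33 libraries; circles and triangles are number ranges 1 and 2. Slc7a2 and Nos2 climb with Arg1 (r of 0.85 and 0.80), and Odc1 shows no such climb (r of 0.21, not passing).

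Over all 43 libraries, after group and number range were taken out, the tested genes whose log2 CPM most resembled each member were listed among 13318 genes by Pearson's r, as a description. For Arg1 they were Spp1 (0.85), Il1rn (0.85) and Anxa4 (0.84). Slc7a2 shared Anxa4 (0.91) with Arg1, followed by Olr1 (0.90) and Lilrb4a (0.89). For Arg2 they were Lamtor3 (0.84), Wfdc17 (0.83) and Clec5a (0.83), and for Nos2 Ltbp2 (0.88), Wsb2 (0.86) and Anpep (0.85). Odc1 had Pitpna (0.73), Id2 (0.70) and Mrps21 (0.65), and Ass1 as deposited had Mdk (0.73), Thap11 (0.70) and Tmppe (0.68). The libraries share their depth and composition across genes, and 13318 genes were ranked for each member.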

How the data were processed

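RNA of lung was sequenced as stranded mRNA libraries (KAPA kit), per the labels' protocols, and the build was GRCm38, per the submitters' processing notes. No source used here names the aligner, the counter or its strand setting. The table that the authors deposited holds whole-number counts by Entrez ID, not normalized. Of 24475 IDs, 24375 matched a gene symbol in the reference tables, and the 100 others, with 2.62% of counts, stayed in the library totals. No 2 columns were identical.

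With edgeR 4.0.16 (R 4.3.3), libraries were scaled by TMM, filterByExpr left 15598 genes, and all 43 libraries entered 1 robust quasi-likelihood fit with group and number range; 7 contrasts were adjusted by Benjamini-Hochberg over all tested genes. Errors after ± are standard errors unless marked SD, and log2 CPM used a prior count of 2. Alternatives were DESeq2 size factors, no filter, no range term, each range alone, the 2 groups alone, DESeq2 1.42.0, limma-voom (limma 3.58.1), leaving out the 2 libraries that stand apart or each isotype replicate, and, chosen after seeing the data, Ass1 summed with Gm5424 and the gene lists without the 2 libraries. The fit was tested on simulated data. Permutations and figures used Python 3.11.15, NumPy 2.4.6, SciPy 1.17.1 and matplotlib 3.10.9.

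Members and lists were chosen with earlier results of these data known. Named were the 6 members and up to 5 called pathway genes per direction and comparison with the smallest p. So were the 3 genes most like each member with a mean of at least 2 CPM, and some of the markers listed as defining. Marker lists of airway epithelium, type I alveolar cells and fibroblasts were also examined and are not described. Of the type II alveolar list only Sftpc is given. Other genes were named after their values were seen. Coordinates are from RefSeq, and exons and transcripts from GENCODE M21, both on GRCm38. Genes with too few counts in the pathway list, such as Cps1 and Otc, were not tested.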

Additional observations from a re-analysis of the deposited data

Results flagged for a closer look

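Among 24 sets of 1 member in 1 group of 4 to 10 libraries, 1 library lay far from the others of its group. Arg1 in replicate 4 of the 15-week group held 526.3 CPM, and the nearest other library 241.56 CPM, a gap of 0.65 of the group's range. For normally distributed values, chance gives such a flag in about 1 of 20 groups, so 1 flag among 24 sets is not unusual. The rule was applied to CPM and not to log2 CPM. On the log2 scale the same library held 9.04, the nearest other 7.92 and the lowest of the group 6.47.

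The change of Nos2 from saline was larger at 15 than at 4 weeks by 0.77 on the log2 scale, as tested by the contrast of 15 against 4 weeks (edgeR adjusted p = 0.0396). The same contrast without the 2 libraries that stand apart gave 0.41 (adjusted p = 0.286).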

How the results depend on the processing

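Of 628 results under alternatives, 527 were marked as unchanged, by a rule that differed between kinds of result. Fold changes, and rho in place of r, had to keep their direction and their side of the threshold. Counts of calls had to stay close to the reported count. Values of r in fewer libraries or within ranges had to keep their sign, with no test. No paired analysis was possible because the labels give no replicate numbers that groups share. Depth limits Arg1 in saline (16 to 39 counts per library) and Ass1, whose counts move in steps.

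Counts of genes called for anti-IL-33 against isotype were 687 without the filter, 297 in range 1, 1 in range 2, 4153 with the 2 groups alone, 1704 with DESeq2 (60.2% higher, against 53.3%) and 4639 without the libraries that stand apart, and 58 to 935 without 1 isotype replicate, the lowest without replicate 3 and 94 without replicate 1, in place of 1047. For isotype against 15 weeks they were 7 without the filter, 4 without the range term, 1 in range 2, 8 with DESeq2, 1 without the libraries that stand apart, and 0 to 11 without 1 isotype replicate, in place of 0. Within range 1, 2308 (4 weeks) and 4194 (15 weeks) differed from saline, 1406 between the times, and with anti-IL-33 3560 from 15 weeks and 578 from saline; range 2 gave 149 for 15 against 4 weeks and 4 for anti-IL-33 against 15 weeks, and the 2 groups alone gave 1206 for 15 against 4 weeks.

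Members called for 15 against 4 weeks, in place of 1, were 0 without the filter, without the range term, in either range, with limma-voom and without the libraries that stand apart, and 2 with DESeq2 or Ass1 summed. For anti-IL-33 against isotype, in place of 2, they were 1 in range 1, 0 in range 2, 4 with the 2 groups alone, DESeq2, limma-voom or without the libraries that stand apart, and 1 to 2 without 1 isotype replicate. Range 1 gave 2 for 4 weeks against saline and 1 for anti-IL-33 against saline, and range 2 gave 0 for anti-IL-33 against 15 weeks.

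Direction turned for 18 values, none of them called as reported. For 15 against 4 weeks, Arg1 was 0.19 in range 1, and Ass1 was -0.54 in range 2, -0.19 with the 2 groups alone, -0.088 with limma-voom and -0.092 without the libraries that stand apart. For isotype against 15 weeks, range 1 gave Ass1 -0.094 and Odc1 -0.0097, range 2 gave Arg2 0.11 and Nos2 0.0032, and summed Ass1 was -0.34. Leaving out 1 isotype replicate, values there ran from -0.14 (without replicate 3) to 0.75 for Arg1, -0.15 to 0.096 (without replicate 1) for Arg2, -0.085 (without replicate 3) to 0.33 for Slc7a2, -0.0046 (without replicate 1) to 0.18 for Ass1 and -0.0085 (without replicate 1) to 0.079 for Odc1. In range 2, Ass1 was 0.62 for anti-IL-33 against 15 weeks and Odc1 -0.0017 against saline. The r of Arg2 and Odc1 was -0.43 without the 2 farthest libraries. Groups within ranges are smaller, and the cause of these turns was not tested.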
